A study of Mus musculus with 8 samples.

Results

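The BCL2 family was examined in mouse inner medullary collecting duct cells kept in hypertonic medium. The genes were the 9 rows of the raw count table whose symbol was Bcl2l1, Bcl2l2, Mcl1, Bak1, Bok, Bcl2l11, Bid, Bad or Bmf, out of 15288 genes in the table. All 9 were among the 14024 genes that passed the filter on low counts and were tested, and the lowest count of any of them in any library was 867. RNA of the cell line labelled IMCD, from kidney, was sequenced as 8 bulk libraries. Both groups had been grown in serum-containing DMEM and then held for 12 h in serum-free DMEM, so the controls were also deprived of serum. The control group (n = 4 libraries, replicates 1 to 4) received no added NaCl, and the NaCl group (n = 4 libraries, replicates 5 to 8) received 100 mmol NaCl, an amount the labels give without a volume. The labels do not say whether the libraries came from separate cultures, so p-values measure the spread between these libraries, which may be technical, and they number the libraries without overlap between the groups.

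Proteins of the BCL2 family decide whether the outer membrane of mitochondria is opened during apoptosis. Effectors such as BAK form pores through which cytochrome c escapes, survival proteins such as MCL1 and BCL-XL hold the effectors and their activators in check, and BH3-only proteins relay stress signals by binding survival proteins or by activating effectors directly. Cells of the inner medulla live in fluid of high and changing salt content, and a rise in tonicity beyond what they can adapt to is known to kill them by apoptosis.

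The promoters of the members with the highest log2 fold changes (Bok, Bcl2l11, Bmf) and of the survival gene that fell (Mcl1) are printed here, because these are the genes on which the comparison turned. Sequences are from RefSeq (build GRCm38.p6), run 5′ to 3′ on the gene's strand and end at the last base before the RefSeq start site, or before the annotated exon in the case of Bmf. For Bcl2l11 and Bmf, which have other start sites, the start site farthest upstream is shown. Capitals mark matches on either strand to the motifs of NFAT5, FOXO, the GC box and the CCAAT box, whose letters follow the sequences.
Bok, chr1:93685325-93685574, plus strand: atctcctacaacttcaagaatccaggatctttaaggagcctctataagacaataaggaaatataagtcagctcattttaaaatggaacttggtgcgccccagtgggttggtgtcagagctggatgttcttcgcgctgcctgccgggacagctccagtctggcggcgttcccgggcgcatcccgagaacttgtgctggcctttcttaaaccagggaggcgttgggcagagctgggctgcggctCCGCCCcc
Bcl2l11, chr2:128125788-128126037, plus strand: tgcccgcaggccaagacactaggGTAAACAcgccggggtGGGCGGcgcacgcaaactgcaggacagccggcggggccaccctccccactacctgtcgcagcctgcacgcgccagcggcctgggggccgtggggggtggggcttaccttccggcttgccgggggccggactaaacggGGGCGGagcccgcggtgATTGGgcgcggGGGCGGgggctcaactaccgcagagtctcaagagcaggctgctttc
Bmf, chr2:118549688-118549936, minus strand: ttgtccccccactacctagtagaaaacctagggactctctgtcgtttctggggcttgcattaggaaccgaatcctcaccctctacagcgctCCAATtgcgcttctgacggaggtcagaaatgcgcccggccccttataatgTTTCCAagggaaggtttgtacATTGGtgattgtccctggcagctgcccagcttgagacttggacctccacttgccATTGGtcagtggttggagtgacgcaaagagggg
Mcl1, chr3:95658471-95658720, plus strand: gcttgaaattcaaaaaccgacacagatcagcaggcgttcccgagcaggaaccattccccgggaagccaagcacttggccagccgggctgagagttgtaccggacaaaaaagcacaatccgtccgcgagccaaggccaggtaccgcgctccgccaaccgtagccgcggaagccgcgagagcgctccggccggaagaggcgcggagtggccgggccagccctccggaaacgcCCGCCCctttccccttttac

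Each motif was searched in the 250 bases before 15 RefSeq start sites of the 9 genes and before 32851 start sites of all genes. The core of the site bound by NFAT5, the factor that answers high tonicity, was searched as TGGAAA. It was found before 2 of the Bmf start sites and before no start site of the other members, and 18.6% of all windows held it. The site of the FOXO factors, searched as GTAAACA, was found in 1 window, at Bcl2l11, and in 3.17% of all windows. The GC box, searched as GGGCGG, was found in 7 of the 15 windows, at 6 of the genes, and in 32.7% of all windows. The CCAAT box, searched by the letters of its name, was found in 5 of the 15 windows, at Bad, Bcl2l11 and Bmf, and in 33.8% of all windows. The cyclic AMP response element (TGACGTCA, in 1.55% of all windows) was in none of the 15. Neither was the E-box, searched as CACGTG and held by 6.02% of all windows, nor the TATA box, searched as TATAAA and held by 12.4% of them. On the opposite strand the NFAT5 core can share letters with the CCAAT box where the 2 adjoin. These matches describe letters in the windows and nothing more, and the windows of Bak1 and those of 2 of the Bcl2l1 start sites lie in annotated exons and are not printed.

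Total counts ranged from 35.29 to 47.57 M per library, and the lowest total was that of NaCl replicate 5. The deposited tables held Cdh16 (640 and 1378 CPM on average in control and NaCl libraries, CPM being counts scaled to the TMM-adjusted library total), Krt18 (217 and 205 CPM) and Hoxb7 (71.5 and 60.1 CPM), all known from collecting duct. Aqp2, the vasopressin-regulated water channel that defines principal cells, had 0 to 15 counts. Of 5 fibroblast markers all 5 were tested, and their summed level was 2747 to 3177 CPM in control and 2435 to 2814 CPM in NaCl libraries. Col1a1 (2495 and 2145 CPM) made up most of it and was lower with NaCl, as were Dcn (15.9 and 14.9 CPM) and Pdgfra, while Col3a1 (381 and 459 CPM) and Pdgfrb (37.5 and 61.0 CPM) were higher. Of 5 leukocyte markers 3 were tested, at 13.0 to 17.9 CPM summed in control and 21.2 to 26.1 CPM in NaCl libraries, where Ptprc was at 4.06 and 13.4, Csf1r at 9.23 and 8.85, and Cd68 at 2.42 and 1.69 CPM, so that Ptprc alone had a higher mean with NaCl. The sums of these lists over control and NaCl libraries were 938 to 1195 and 1696 to 1924 CPM for collecting duct, 163 to 205 and 155 to 177 CPM for proximal tubule, and 0.357 to 0.871 and 0.357 to 0.804 CPM for endothelium. Most of the higher collecting duct sum with NaCl was Cdh16, while Krt8 (109 and 96.4 CPM), Krt18, Hoxb7, Gata3 (8.11 and 5.96 CPM) and Aqp4 had lower means with NaCl. Epcam (27.3 and 28.2 CPM), Scnn1a (2.12 and 2.48 CPM), Avpr2 (0.108 and 0.645 CPM) and Cdh1 (0.196 and 0.534 CPM) had higher means. Their part in the results below was not tested, and in bulk RNA fewer cells of a type and less RNA per cell cannot be told apart.

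Levels of different genes were compared per length, as CPM per kb of annotated exon. The order of the 9 genes was the same in both groups. Mcl1, which encodes a short-lived survival protein, had the highest control level at 75.1 ± 1.24 CPM per kb (SD, n = 4), followed by the effector gene Bak1 at 49.9 ± 0.788. Bok, a further effector gene, had 27.0 ± 1.21 and Bcl2l1, which encodes BCL-XL, had 21.8 ± 1.79 CPM per kb. Bcl2l2, which encodes the survival protein BCL-W, and Bad came next at 17.0 ± 0.674 and 15.8 ± 0.847 CPM per kb, and their libraries overlapped in both groups. Bid had 11.6 ± 1.03, Bmf 6.69 ± 0.537 and Bcl2l11 2.98 ± 0.328 CPM per kb. All other neighbours in this order were separated in all libraries of each group. Exon lengths were summed over all annotated transcripts, so a gene with long alternative exons, such as Bcl2l11 with 8029 bases, is set lower than its used transcripts would be.

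Of the 9 genes, 3 were called higher and 2 lower with NaCl, and 4 were not called. Calls were made where edgeR's quasi-likelihood test gave a Benjamini-Hochberg adjusted p, taken over all genes, under 0.05, and 34.1% of all tested genes were called (16.9% higher and 17.2% lower). Bok, Bcl2l11 and Bmf rose by 1.24 to 1.30-fold, Mcl1 fell by 10.2% and Bak1 fell by 11.5%. The groups did not overlap for these 5 genes, where 33.4% of all tested genes had groups without overlap. The median absolute log2 fold change was 0.16 for the 9 genes and 0.14 for all tested genes. The absolute log2 fold changes of the 5 called genes ran from 0.16 to 0.38, and none reached 1.5-fold. By role, 0 of 3 survival genes were called higher and 1 lower (median log2 fold change -0.11), 1 of 2 effector genes was called higher and 1 lower (median 0.10), and 2 of 4 BH3-only genes were called higher and 0 lower (median 0.17). For both counts of 0, the edgeR test at an unadjusted p under 0.05, DESeq2, limma-voom and limma on the normalized values also gave 0. The median log2 fold change of all tested genes was 0.00. These 5 calls were kept in each refit that left out a library and under each other scaling, filter and test program tried.

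**Figure D1:**
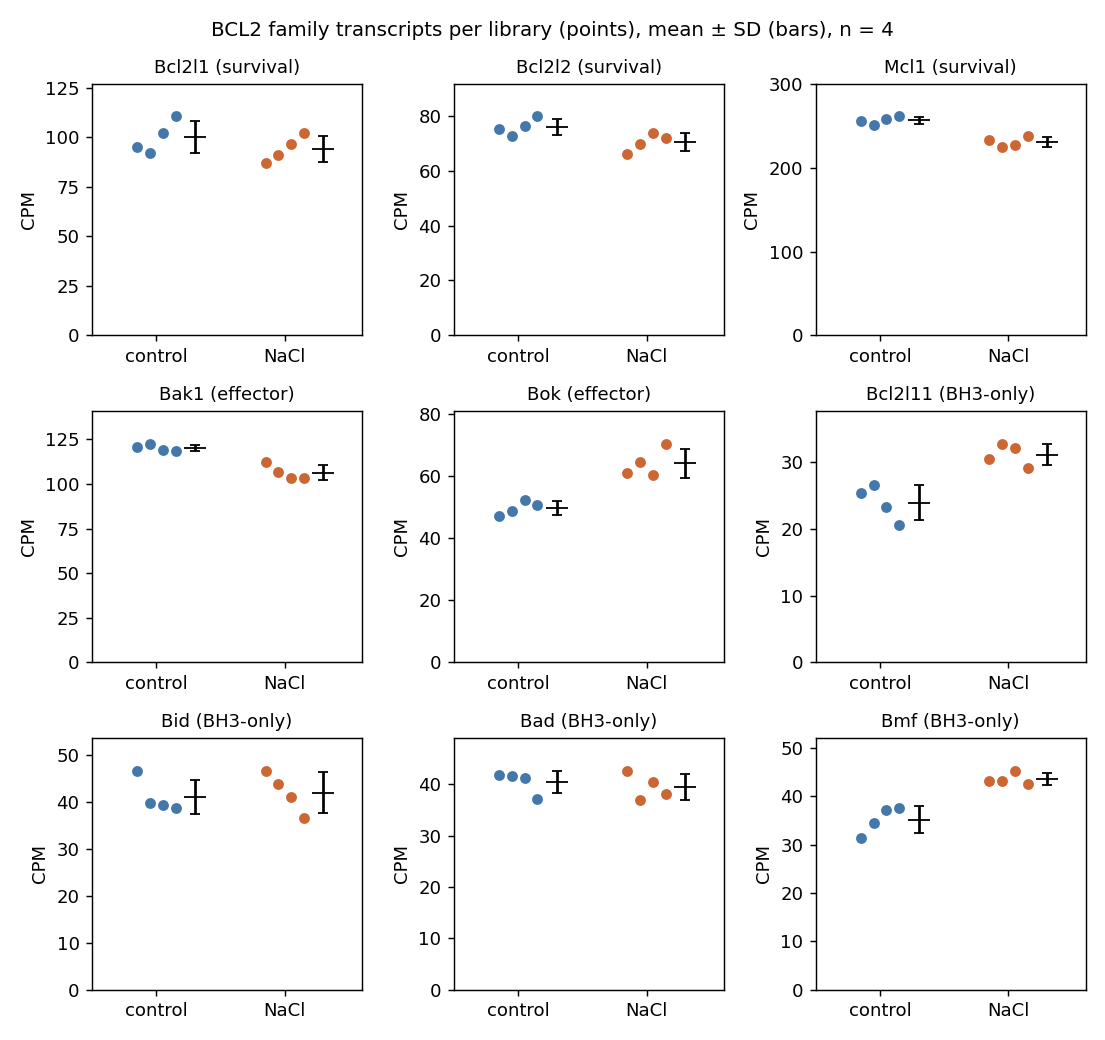
Levels in CPM of the 9 genes, 1 panel a gene with its own axis from 0. Points are libraries, from left to right control replicates 1 to 4 and NaCl replicates 5 to 8, and bars are the mean ± SD (n = 4 a group). The NaCl points of Bok, Bcl2l11 and Bmf all lie above the control points, those of Mcl1 and Bak1 all lie below them, and the groups overlap for the other genes.

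The libraries carry numbers that run from 1 to 8 across the groups. Separate fits took the number as a covariate, either centred within each group or as a linear drift over all 8 libraries. The drift moves together with the group, because every control number is below every NaCl number, so drift and treatment can be only partly told apart. With the drift in the fit 5 genes were again called, but 3 of them were others: Mcl1 and Bcl2l11 kept their calls, Bok, Bmf and Bak1 lost theirs, and Bcl2l1, Bcl2l2 and Bid gained one. Of all tested genes 24.1% were called with drift (11.5% higher and 12.6% lower), and 2191 of the 4789 genes called without it kept their call and sign. With the centred number 43.0% of all tested genes were called (21.0% higher and 22.0% lower), and the members called were 7, 3 higher and 4 lower. Values under the linear drift are given with each member and with part of the pathway genes, as "with drift". None are given for Huwe1, Dynll1, Dynll2, Foxo1, Foxo3 or Bnip3.

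Among the survival genes, Mcl1 (ENSMUSG00000038612, GRCm38 chromosome 3, 95658788 to 95663176, plus strand) was the single one called. Control replicates 1 to 4 had 256, 251, 258 and 261 CPM, and NaCl replicates 5 to 8 had 232, 225, 227 and 238 CPM. Every NaCl library lay below every control library, by a margin that was narrow beside the level itself. The log2 fold change was -0.16 (SE 0.032; edgeR adjusted p = 0.00126), with a 95% interval of the fold from 0.86 to 0.94, and with drift it was -0.20.

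Bcl2l1 (ENSMUSG00000007659, chromosome 2, 152780668 to 152831728, minus strand) yields the survival protein BCL-XL and, by splicing, the death-promoting BCL-XS, which counts per gene do not separate. It had 95.3, 91.9, 102 and 110 CPM in control replicates 1 to 4 and 86.8, 90.8, 96.3 and 102 CPM in NaCl replicates 5 to 8. The groups overlapped, and the spread inside each group was wider than the difference of their means. Its log2 fold change was -0.09 (SE 0.060; edgeR adjusted p = 0.287), and the 95% interval of the fold ran from 0.86 to 1.03. Leaving out 1 library gave values from -0.132 (without NaCl replicate 8) to -0.0392 (without control replicate 4), none of them called. It was called lower with the centred number (log2 fold change -0.09, edgeR adjusted p = 0.0341) and with drift (-0.40, adjusted p = 3.7e-05).

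Bcl2l2 (ENSMUSG00000089682, chromosome 14, 54883377 to 54888234, plus strand) had 75.1, 72.5, 76.2 and 79.7 CPM in control and 66.1, 69.6, 73.7 and 72.0 CPM in NaCl libraries. NaCl replicate 7 lay above control replicate 2, and the other NaCl libraries lay below all controls. The log2 fold change was -0.11 (SE 0.044), the interval of the fold ran from 0.87 to 0.99, and the edgeR adjusted p of 0.0686 missed the threshold. The gene was called lower without control replicate 2 (log2 fold change -0.13, edgeR adjusted p = 0.0476), with the centred number (-0.11, adjusted p = 0.0164) and with drift (-0.26, adjusted p = 0.00963). Gm20521, a transcript unit on the same strand that joins part of Bcl2l2, overlaps 13.3% of its exons and was not in the count table.

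The effector genes went in opposite directions. Bok (ENSMUSG00000026278, chromosome 1, 93685660 to 93695764, plus strand) encodes an effector-like protein that is kept scarce by degradation at the endoplasmic reticulum. Its control libraries had 47.1, 48.9, 52.3 and 50.5 CPM and its NaCl libraries 60.9, 64.7, 60.2 and 70.4 CPM. The lowest NaCl library was above the highest control library. Bok thus rose by 0.37 on the log2 scale (SE 0.053, edgeR adjusted p = 5.27e-05), or 1.29-fold with an interval from 1.19 to 1.39. With drift it was 0.18 and the call was lost (edgeR adjusted p = 0.152).

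Bak1 (ENSMUSG00000057789, chromosome 17, 27019810 to 27029009, minus strand) encodes the effector that resides on mitochondria in healthy cells. It had 121, 123, 119 and 118 CPM in control and 112, 106, 104 and 103 CPM in NaCl libraries. The controls lay within a few CPM of each other and all above the NaCl libraries. For Bak1 the log2 fold change was -0.18 (SE 0.036; edgeR adjusted p = 0.00123), with an interval of the fold from 0.84 to 0.93. With drift it was -0.07 and the call was lost (edgeR adjusted p = 0.462). Ggnbp1 lies on the opposite strand over 18.2% of the Bak1 exons, and a further entry of that name, not in the count table, over 7.35%. The strandedness of the libraries is not given in the sources used here. Ggnbp1 itself had 2.17 CPM in control and 1.94 CPM in NaCl libraries, and its part in the Bak1 counts was not tested.

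The number of Bok counts per Bak1 count, which does not depend on how libraries are scaled, was set beside these values after they had been seen. It was 0.391, 0.399, 0.44 and 0.427 in control and 0.543, 0.607, 0.582 and 0.682 in NaCl libraries. The groups did not overlap, and the log2 ratio was 0.54 higher with NaCl, or 0.25 higher with drift. The lack of overlap was fixed by the single genes, as Bok was higher and Bak1 lower in every NaCl library. Bax (ENSMUSG00000003873), the effector gene outside the 9 that is best known beside Bak1, had 109.6 ± 2.54 CPM in control and 111 ± 5.93 CPM with NaCl (SD, n = 4 each; log2 fold change 0.02, edgeR adjusted p = 0.723). With drift the sign turned, to -0.11 without a call (edgeR adjusted p = 0.248), and without NaCl replicate 5 the log2 fold change was 0.06.

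**Figure D2:**
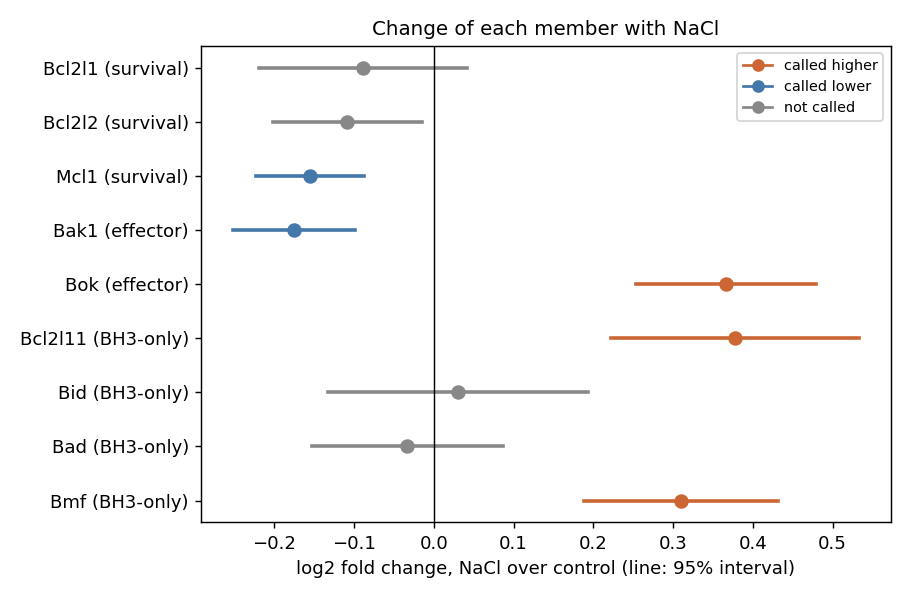
Log2 fold change (NaCl over control) of the 9 genes from edgeR's quasi-likelihood fit of 4 against 4 libraries, with 95% intervals as lines and colour by call. Bok, Bcl2l11 and Bmf lie at 0.31 to 0.38, Mcl1 and Bak1 at -0.16 and -0.18, and the 4 genes in grey were not called.

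Of the BH3-only genes, Bcl2l11 (ENSMUSG00000027381, chromosome 2, 128126038 to 128162547, plus strand) and Bmf rose. Bcl2l11 encodes BIM, which binds every survival protein of the family and also activates effectors. Its control libraries had 25.3, 26.6, 23.3 and 20.5 CPM and its NaCl libraries 30.4, 32.7, 32.0 and 29.1 CPM. The controls were spread over a wider range than the NaCl libraries but stayed below them. Its log2 fold change was 0.38 (SE 0.074; edgeR adjusted p = 7.70e-04), a 1.30-fold rise with an interval from 1.17 to 1.45. It was called under every alternative tried, and with drift the value was 0.64.

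Bmf (ENSMUSG00000040093, chromosome 2, 118528757 to 118549687, minus strand) encodes a BH3-only protein that is held at the cytoskeleton by a dynein light chain in healthy cells. It had 31.4, 34.5, 37.0 and 37.6 CPM in control and 43.0, 43.2, 45.2 and 42.5 CPM in NaCl libraries. The NaCl libraries lay close together, above every control. For Bmf the log2 fold change was 0.31 (SE 0.058; edgeR adjusted p = 5.15e-04), a 1.24-fold rise with an interval from 1.14 to 1.35. With drift it was 0.14 and the call was lost (edgeR adjusted p = 0.367).

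Bid (ENSMUSG00000004446, chromosome 6, 120891930 to 120916853, minus strand) encodes the protein that death receptors turn into an activator of BAK and BAX by cleavage. It had 46.5, 39.8, 39.3 and 38.6 CPM in control and 46.6, 43.8, 41.0 and 36.6 CPM in NaCl libraries. The groups covered nearly the same range. Between them the log2 fold change was 0.03 (SE 0.076; edgeR adjusted p = 0.792). The interval of the fold ran from 0.91 to 1.14, so a change within these bounds was compatible with the data. With drift the log2 fold change was 0.42 and called higher (edgeR adjusted p = 9.15e-04). Bcl2l13, a BCL2-like gene on the opposite strand, overlaps 17.7% of the Bid exons and had 74.5 ± 3.63 CPM in control and 75.2 ± 0.997 CPM with NaCl (SD, n = 4 each). Reads in that overlap cannot be assigned without knowing the strand.

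Bad (ENSMUSG00000024959, chromosome 19, 6941861 to 6951899, plus strand) encodes a BH3-only protein that growth factor kinases switch off by phosphorylation. It had 41.8, 41.5, 41.1 and 37.2 CPM in control and 42.6, 37.0, 40.4 and 38.0 CPM in NaCl libraries. The highest and the lowest library of the 8 were both NaCl libraries. For Bad the log2 fold change was -0.03 (SE 0.057; edgeR adjusted p = 0.697), the interval of the fold ran from 0.90 to 1.06, and with drift the sign turned to 0.14 with no call (adjusted p = 0.332). Gpr137, on the opposite strand over 20.5% of the Bad exons, was itself called higher, at 24.4 ± 0.756 and 29.2 ± 1.82 CPM (edgeR adjusted p = 0.00278), and its part in the Bad counts was not tested.

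The balance of survival and death transcripts was described as the number of Mcl1 or Bcl2l1 counts per count of another member in the same library. Such ratios do not depend on the scaling of libraries, and they are given without a test because the single genes were tested above. Mcl1 counts per Bcl2l11 count were 10.1, 9.46, 11.1 and 12.7 in control and 7.64, 6.88, 7.07 and 8.17 in NaCl libraries. All NaCl values lay below all control values, and the log2 ratio was 0.54 lower with NaCl (difference -0.54). In CPM, Mcl1 was lower, and Bcl2l11 and Bmf were higher, in every NaCl library than in every control. The separation in this ratio and in that of Mcl1 to Bmf was thus fixed by the single genes and is no further result. Mcl1 counts per Bmf count were 8.14, 7.28, 6.98 and 6.95 in control and 5.40, 5.21, 5.01 and 5.59 in NaCl libraries, again without overlap (difference of the log2 ratio -0.47). Bcl2l1 counts per Bmf count also separated the groups, at 3.03, 2.66, 2.76 and 2.94 in control and 2.02, 2.10, 2.13 and 2.40 in NaCl libraries (difference -0.40). With drift, in a least-squares fit added after the values were seen, these differences were -0.85 for Mcl1 to Bcl2l11, -0.34 for Mcl1 to Bmf and -0.54 for Bcl2l1 to Bmf.

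Bcl2l1 counts per Bcl2l11 count were 3.77, 3.46, 4.38 and 5.39 in control and 2.85, 2.78, 3.01 and 3.50 in NaCl libraries. NaCl replicate 8 lay above control replicate 2, so these groups overlapped although the mean log2 difference was -0.47. Against Bid, the difference of the log2 ratio was -0.12 for Bcl2l1 and -0.19 for Mcl1, and against Bad it was -0.06 and -0.12, all with overlapping groups. Single libraries moved these differences: without 1 library they ran from -0.224 to -0.0298 for Bcl2l1 to Bid, from -0.113 to 0.0331 for Bcl2l1 to Bad and from -0.155 to -0.0747 for Mcl1 to Bad. The highest value was reached without NaCl replicate 5 for Bcl2l1 to Bid and without control replicate 4 for both ratios to Bad. With drift the differences were -1.05 for Bcl2l1 to Bcl2l11, -0.83 and -0.63 for Bcl2l1 and Mcl1 to Bid, and -0.55 and -0.35 to Bad. Mcl1 and Bak1 fell side by side: Mcl1 counts per Bak1 count were 2.14 ± 0.0682 in control and 2.17 ± 0.100 with NaCl (SD, n = 4 each). Bcl2l1 counts per Bak1 count were 0.833 ± 0.0803 and 0.886 ± 0.0921, a difference of the log2 ratio of 0.0877 that ran from 0.0342 (without NaCl replicate 8) to 0.150 (without NaCl replicate 5). With drift the sign of both ratios to Bak1 turned, to -0.13 for Mcl1 and -0.33 for Bcl2l1.

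**Figure D3:**
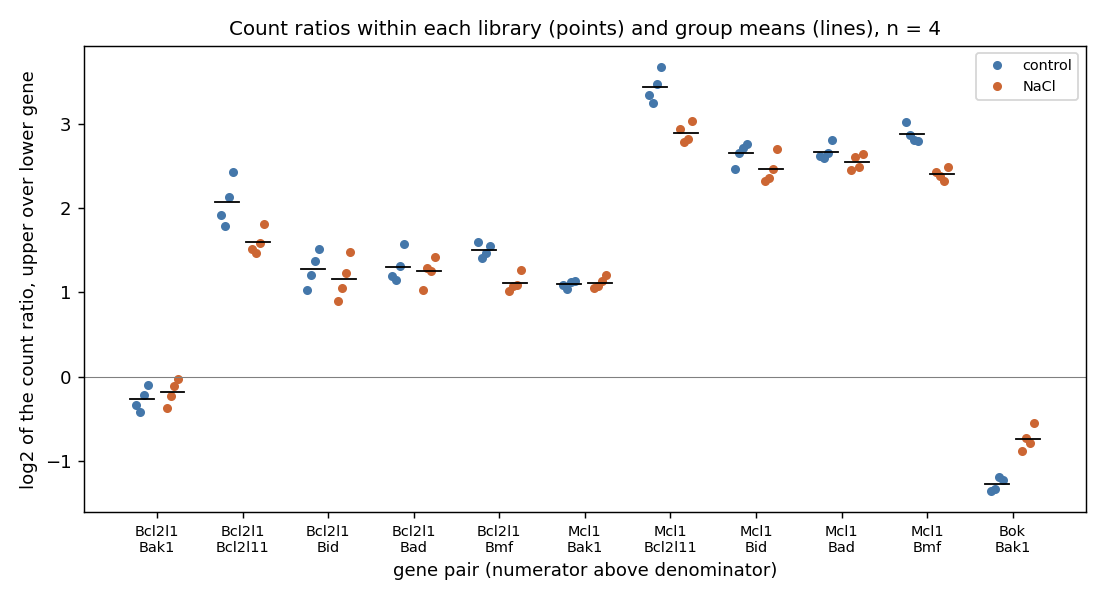
Log2 of the ratio of raw counts of gene pairs within each library, with the numerator named above the denominator. Points are libraries (control replicates 1 to 4 and NaCl replicates 5 to 8 from left to right, n = 4 a group) and lines are group means. The ratios of Mcl1 to Bcl2l11, Mcl1 to Bmf and Bcl2l1 to Bmf are lower in every NaCl library. That of Bok to Bak1 is higher in every NaCl library, and the other pairs overlap. For Mcl1 to Bcl2l11, Mcl1 to Bmf and Bok to Bak1 the separation was fixed by the single genes, whose groups did not overlap.

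The rest of the pathway was taken from 9 gene lists, of which 64 of 71 genes were tested. Of these, 25 genes (39.1%) were called, 8 higher and 17 lower, beside the 34.1% of all tested genes, and the median log2 fold change was -0.02. With drift 15 genes were called, beside 24.1% of all tested genes, and 9 of the 25 kept their call and sign, as did 2191 of the 4789 genes called in all. Among other BCL2 proteins, 2 of 7 tested genes were called, both lower. Pmaip1, which encodes the BH3-only protein NOXA that binds MCL1, had 7.17, 6.07, 6.43 and 6.55 CPM in control and 3.57, 5.25, 4.07 and 4.41 CPM in NaCl libraries. The groups did not overlap, and its log2 fold change was the lowest of the 64 genes at -0.60 (SE 0.13; edgeR adjusted p = 0.00151). With drift it was -0.60 with an adjusted p of 0.0872.

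Bcl2 (ENSMUSG00000057329), the survival gene after which the family is named, had 22.7, 22.5, 22.8 and 22.4 CPM in control and 20.3, 21.1, 19.6 and 18.0 CPM in NaCl libraries. The controls were almost level and all above the NaCl libraries, and the log2 fold change was -0.19 (SE 0.063; edgeR adjusted p = 0.0259). The call was lost with drift (-0.07, edgeR adjusted p = 0.775) and without control replicate 3 (adjusted p = 0.0523), NaCl replicate 7 (0.0576) or NaCl replicate 8 (0.0818). Bbc3, which encodes the BH3-only protein PUMA, had 11.8 ± 0.898 CPM in control and 11.02 ± 1.08 CPM with NaCl (SD, n = 4 each; log2 fold change -0.09, edgeR adjusted p = 0.463). With drift its log2 fold change was -0.19 (edgeR adjusted p = 0.505).

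Downstream of the mitochondria, 1 of 7 genes for the apoptosome and released proteins was called, higher. Of 5 caspase genes 4 were called, 1 higher and 3 lower. Of all tested genes 34.1% were called, 16.9% higher and 17.2% lower, and no list was tested as a set. Casp6, which encodes an effector caspase, fell from 48.1 ± 2.48 to 40.4 ± 2.30 CPM (log2 fold change -0.25, edgeR adjusted p = 0.00150), and with drift it was -0.42. Of 5 genes for inhibitors of apoptosis, 2 were called higher and 1 lower, and Birc2, which encodes the ubiquitin ligase cIAP1, rose from 31.3 ± 3.26 to 38.1 ± 0.915 CPM (log2 fold change 0.29, edgeR adjusted p = 0.00286, with drift 0.18 and adjusted p = 0.305).

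At the outer membrane, 1 of 8 partner genes was called higher and 3 lower, beside 16.9% and 17.2% of all tested genes. Fis1, which encodes a membrane anchor of the fission machinery, had 102, 106, 103 and 103 CPM in control and 135, 136, 128 and 134 CPM in NaCl libraries. The groups were far apart beside their spread, and the log2 fold change was the highest of the 64 genes at 0.36 (SE 0.034; edgeR adjusted p = 3.66e-07). With drift it was 0.38, and the call was kept under every alternative. Of 5 genes that act on MCL1 turnover 1 was called, higher: Huwe1, which encodes a ubiquitin ligase for MCL1, with a log2 fold change of 0.10 (edgeR adjusted p = 0.0204). This gene was singled out after its value was seen.

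Among 17 regulators of BH3-only proteins, 1 was called higher and 5 lower. That is 35.3% of them, near the 34.1% of all tested genes (16.9% higher and 17.2% lower). The single gene called higher was Dynll2 (log2 fold change 0.20, edgeR adjusted p = 6.55e-04), whose product is the dynein light chain that holds BMF, and Dynll1, whose product holds BIM, was called lower (-0.13, adjusted p = 0.0110). Both were singled out after their values were seen. Foxo1 and Foxo3, which encode transcription factors known to drive Bcl2l11, were not called, with log2 fold changes of -0.0041 and -0.02. In the death receptor arm, 1 of 7 genes was called higher and 3 lower. Cflar, which encodes the inhibitor FLIP, rose from 67.7 ± 2.21 to 78.6 ± 4.33 CPM (log2 fold change 0.22, edgeR adjusted p = 0.00132), and with drift the call was lost (0.07, adjusted p = 0.585). Fas, the receptor gene, had 5.11, 3.91, 5.61 and 5.20 CPM in control and 2.34, 3.59, 4.34 and 3.22 CPM in NaCl libraries. Its groups overlapped, its log2 fold change was -0.55 (SE 0.17; edgeR adjusted p = 0.0194), and the call was lost without control replicate 3 (adjusted p = 0.0596) or NaCl replicate 5 (0.0547), while with drift the value was -0.94. Of 3 genes for BH3-like mitophagy proteins, 0 were called in edgeR's test, 0 had an unadjusted p under 0.05, and 0 were called by DESeq2, limma-voom or limma on the normalized values. Bnip3 had 355 ± 68.2 CPM in control and 262 ± 94.0 CPM in NaCl libraries (SD; edgeR adjusted p = 0.340). Its level rose with the library number in both groups, from 274 through 324 and 406 to 416 CPM in control and from 140 through 239 and 318 to 351 CPM in NaCl libraries.

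**Figure D4:**
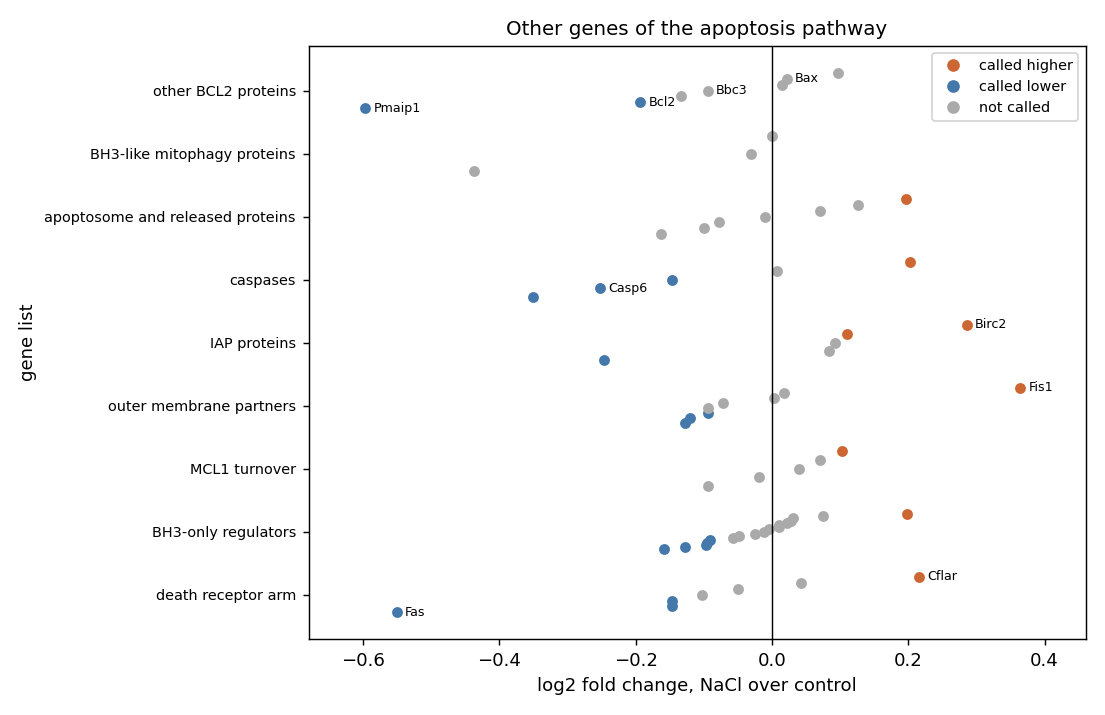
Log2 fold change (NaCl over control) of the 64 tested pathway genes, by list. Each point is a gene, coloured by its call in edgeR's quasi-likelihood test, and 9 of the genes named in the text are labelled. Fis1 lies highest at 0.36 and Pmaip1 lowest at -0.60, and 25 of the 64 points are coloured as called.

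The genes whose 8-library profiles came nearest to those of the members with the highest and lowest called log2 fold change were looked up among 10110 genes. Likeness was the root mean square difference of log2 CPM over the 8 libraries after each gene's mean had been subtracted. Nearest to Bcl2l11 were Tmem38b (0.0547), Lin9 (0.0549) and Smyd4 (0.0572), whose log2 fold changes were 0.33, 0.38 and 0.42. Nearest to Bak1 were Snrpd2 (0.0137), Rap2c (0.0175) and Top2b (0.0205), at -0.16, -0.19 and -0.19. The profiles of these genes include the difference between the groups, so likeness reflects a similar fold change as well as a similar spread.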

How the data were processed

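The authors deposited raw counts for 15288 Ensembl genes in 8 libraries. A second deposited table held a normalized signal, each count over the factor of its library. Trim Galore 0.6.7, STAR, DESeq2 1.34.0 and the build mm10 are named in the submitters' processing notes, without their roles. The counting program and strandedness are not given in the sources used here.

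The counts went into edgeR 4.0.16 (R 4.3.3): filterByExpr by group (minimum count 10; 14024 genes kept, 1264 removed), TMM factors, and a robust quasi-likelihood fit with group as the single term. CPM used TMM-scaled totals, and log2 CPM a prior count of 2. Standard errors were the log2 fold change divided by the square root of F. No pair of libraries held identical counts. In simulated counts (13877 genes tested) 200 genes were given a change, far fewer than the 4789 called in the data. There 58% of genes changed by 1.25-fold, 89.7% at 1.5-fold and 93.1% at 2-fold were recovered, and 6.63% of 166 calls were false. Recovery with as many changed genes as were called in the data was not tested, so these shares do not give the recovery in the data.

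Coordinates, exon lengths and overlaps came from GENCODE M21 (GRCm38), in which 15274 of the 15288 identifiers were found, and promoters from RefSeq, matched by symbol for 9 of 9 members. With blastn 2.17.0 (at least 75 bases at 98% identity) the longest transcripts of Bcl2l2, Bak1 and Bid shared 14.0%, 25.8% and 26.0% of their length with other genes, each of which overlaps them, and the other 6 members shared none.

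The members, the lists and the alternatives were chosen with earlier results of these data known. Named were the 9 members, the called pathway genes at both ends of the order of log2 fold change, 4 at each end, Bcl2, Bax, Bbc3 and Pmaip1, (2 genes at the ends are not reported here), and the 3 nearest profiles (mean log2 CPM of at least 3) to the called members highest and lowest in log2 fold change. The alternatives were median-of-ratios factors, library totals, upper-quartile factors, no filter, a filter of 10 counts in each library, libraries thinned to the smallest total, DESeq2 1.42.0, limma-voom (limma 3.58.1), limma on log2 of the normalized values plus 1, a threshold of 0.01, the library number as a covariate, and leaving out each library.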

Additional observations from a re-analysis of the deposited data

Results flagged for a closer look

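In 60 sets of 4 values (members, named pathway genes, ratios and total counts, each within a group), single libraries far from the remaining ones were found in 5, where chance gives about 3.0. Bid had 46.51 CPM in control replicate 1, where the other controls had 38.64 to 39.83 CPM. Bad had 37.17 CPM in control replicate 4, where the other controls had 41.15 to 41.77 CPM. In NaCl replicate 5 Bax was at 102.3 CPM, and the remaining NaCl libraries were at 113.6 to 114.6 CPM. Total counts were 47.57 M in control replicate 1 against 41.77 to 42.73 M, and 35.29 M in NaCl replicate 5 against 41.37 to 42.39 M. Neither Bid nor Bad nor Bax was called when any library was left out.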

How the results depend on the processing

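Over 180 refits of the 9 members under 20 alternatives each, 169 kept direction and side of the threshold. All 5 members called were called under each alternative other than the linear drift over library numbers 1 to 8. With that drift the log2 fold changes were -0.403 for Bcl2l1, -0.265 for Bcl2l2 and 0.425 for Bid, all then called, 0.177 for Bok, 0.135 for Bmf and -0.0737 for Bak1, none then called, and 0.143 for Bad and -0.114 for Bax, both reversed without a call. With the number centred within groups Bcl2l1 (-0.0895) and Bcl2l2 (-0.109) were also called, so 4 members were lower in place of 2, while the genes called lower among all tested rose from 2418 to 3085. Without a library, the log2 fold change ranged from -0.133 to -0.0801 for Bcl2l2, from -0.132 to -0.0392 for Bcl2l1, from -0.0729 to -0.00297 for Bad, from 0.00659 to 0.0594 for Bax, from -0.146 to -0.0533 for Bbc3 and from -0.0225 to 0.0945 for Bid. The difference of the log2 ratio ranged from -0.224 to -0.0298 for Bcl2l1 to Bid, from 0.0342 to 0.150 for Bcl2l1 to Bak1, from -0.155 to -0.0747 for Mcl1 to Bad, from -0.113 to 0.0331 for Bcl2l1 to Bad and from -0.00803 to 0.0418 for Mcl1 to Bak1. At a threshold of 0.01, 3145 genes were called (1545 higher, 1600 lower) and 13 pathway genes (7 lower). With drift 15 pathway genes were called, 9 of them lower, and 3382 of all tested genes. In a drift fit of the ratios added after seeing the data, the differences were -1.05, -0.826, -0.546 and -0.536 for Bcl2l1 to Bcl2l11, Bid, Bad and Bmf, -0.850, -0.628, -0.347 and -0.337 for Mcl1 to the same genes, 0.251 for Bok to Bak1, and, reversed, -0.329 for Bcl2l1 and -0.130 for Mcl1 to Bak1. The causes were not tested. The replicate numbers of the groups do not overlap. No paired analysis was possible because the groups share no replicate number. Thinning to the smallest total left the same 5 members called.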
